A study of Mus musculus with 12 samples.

Results

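Skeletal muscle fibre genes encode the contractile and calcium-handling parts of striated muscle. A set of 34 of them was followed through 12 mouse tumours, as 34 of the 53801 genes in the deposited table. The members were chosen by gene name: 14 belong mainly to fast fibres, 7 to slow fibres and 13 to both. All 34 names were found in the table.

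LLC (Lewis lung carcinoma) cells, which come from a lung tumour of a C57BL/6 mouse, had been placed in female C57BL/6 hosts aged 6 to 8 weeks. Each flank received 3000000 cells in Matrigel, so that 6 animals per group carried 10 to 12 tumours per group. Once tumour volume had reached at least 100 mm3, 100 µL was injected into the peritoneum 2 times per week for 4 weeks. The 4 groups, with 3 libraries each, were the combination of cisplatin and brivanib, brivanib alone, cisplatin alone, and vehicle. Brivanib inhibits VEGF and FGF receptor kinases, and cisplatin is a platinum drug that cross-links DNA. The sources used here do not give the doses. The labels name no altered allele, and the hosts of all groups carried the same cell line. Libraries are called by their group and the number in their label. Since both flanks were injected, 2 tumours of a group could share a mouse, and the labels do not tell. The p-values therefore describe the spread between the sequenced samples, which may be partly technical.

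A skeletal muscle fibre shortens when myosin heavy chains pull on thin filaments of actin, tropomyosin and troponin. Calcium released from the sarcoplasmic reticulum through the ryanodine receptor switches the thin filament on, and the SERCA pump takes the calcium back. Fast fibres use one set of heavy chain, light chain and troponin isoforms, and slow fibres use another, so the isoforms in a sample tell which fibre types its muscle RNA came from. LLC is an epithelial tumour line, and the mouse flank holds body wall muscle and a thin muscle sheet of the skin. In bulk tissue, fewer muscle cells and less muscle RNA per cell cannot be told apart.

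Levels are in FPKM, fragments per kilobase of transcript scaled to the library's size, summed over the transcripts of a gene. The fragments recovered from the FPKM values numbered 17160875 to 30942897 per library, and the FPKM values gave back whole fragment numbers. The highest number is that of brivanib 5, whose FPKM values were scaled to a smaller total of 21020593 fragments. In brivanib 5, 38.2% of fragments came from ribosomal RNA and similar features, against 0.314 to 0.690% in the other 11 libraries, and its FPKM values summed to 921510, against 471828 to 527657 elsewhere. That library is one of the muscle-rich ones described next, so muscle totals are also given as shares of the other fragments.

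Summed over 32 members, without Tpm2 and Eno3, muscle RNA was high in 5 of the 12 libraries. The sums were 96.5, 11.8 and 7.77 FPKM in combination tumours, 6.26, 407 and 333 in brivanib tumours, 36.7, 4.98 and 29.5 in cisplatin tumours and 5.81, 7.0 and 7.41 in vehicle tumours. Brivanib 3 and brivanib 5 were the highest, combination 2 came next, and cisplatin 1 and cisplatin 3 followed. The other 7 libraries, 1 of them a brivanib tumour and 2 of them combination tumours, lay between 4.98 and 11.8 FPKM. As a share of fragments outside the ribosomal-like features, the same 32 genes made up 0.0221% in combination 2, 0.0884% in brivanib 3 and 0.0737% in brivanib 5. Tpm2 and Eno3 were left out of the sums because both were abundant in all 12 libraries. Over groups, the sum averaged 38.7 ± 50.1 FPKM with the combination, 249 ± 213 with brivanib, 23.7 ± 16.6 with cisplatin and 6.74 ± 0.830 with vehicle (SD, n = 3 each). The SD exceeded the mean in the combination group and was far smaller than the mean in the vehicle group.

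**Figure D1:**
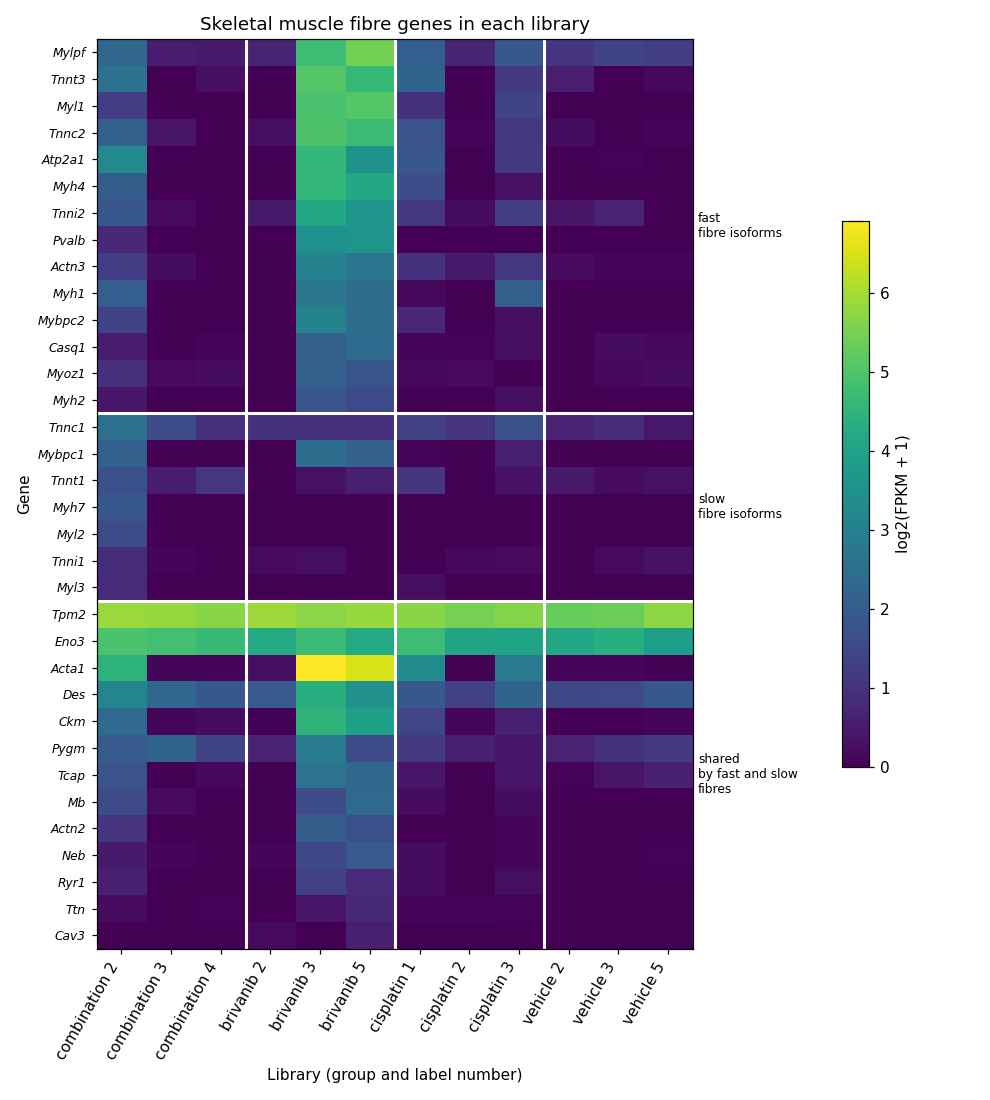
Level of each of the 34 genes (log2(FPKM + 1), colour) in each of the 12 libraries, in columns by group, with fast, slow and shared members in blocks from top to bottom. Bright cells outside Tpm2 and Eno3 lie mainly in combination 2, brivanib 3, brivanib 5, cisplatin 1 and cisplatin 3, and Myh7, Myl2 and Tnni1 are brightest in combination 2.

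The heat map shows where the 34 genes were found. Of the members, 18 were highest in brivanib 3, 8 in brivanib 5, 7 in combination 2 and 1, Tpm2, in brivanib 2. Of the 7 slow members 6 were highest in combination 2, whereas all 14 fast members were highest in brivanib 3 or brivanib 5. In vehicle tumours 13 members had 0 fragments in all 3 libraries: Myh1, Myh2, Myh4, Myl1, Mybpc2, Pvalb, Myh7, Myl2, Myl3, Mybpc1, Actn2, Mb and Cav3. The members at 0 in all 3 libraries were Cav3 in combination tumours, Myl2 and Myl3 in brivanib tumours, and Pvalb, Myl2 and Cav3 in cisplatin tumours. A count of 0 says that the gene was not detectable at this depth.

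Because the myosin heavy chains carry the fibre type, the sequences upstream of the 3 fast genes, the slow gene and the actin gene Acta1 are shown, as the 250 bases before each gene's start in RefSeq on GRCm38.p6, from 5′ to 3′ on the gene's strand. Capitals mark matches on either strand to an E-box (CANNTG, the site type of MyoD-family factors), to the MEF2 site and to the CArG box (the site type of serum response factor). No matches overlapped in the stretches printed. The stretches are chr11:67237562-67237811 (plus strand) for Myh4, chr11:67199852-67200101 (plus) for Myh1, chr11:67170777-67171026 (plus) for Myh2, chr14:54994627-54994876 (minus) for Myh7 and chr8:123894776-123895025 (minus) for Acta1.
Myh4: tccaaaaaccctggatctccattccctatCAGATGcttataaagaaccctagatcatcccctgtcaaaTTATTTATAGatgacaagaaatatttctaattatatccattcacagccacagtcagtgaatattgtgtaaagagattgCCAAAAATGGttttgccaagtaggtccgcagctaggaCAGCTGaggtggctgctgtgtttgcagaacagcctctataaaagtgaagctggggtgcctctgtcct
Myh1: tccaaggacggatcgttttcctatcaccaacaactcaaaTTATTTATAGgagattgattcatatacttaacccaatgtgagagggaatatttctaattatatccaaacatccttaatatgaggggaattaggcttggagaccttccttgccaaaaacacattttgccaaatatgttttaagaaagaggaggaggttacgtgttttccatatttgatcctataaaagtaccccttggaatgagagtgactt
Myh2: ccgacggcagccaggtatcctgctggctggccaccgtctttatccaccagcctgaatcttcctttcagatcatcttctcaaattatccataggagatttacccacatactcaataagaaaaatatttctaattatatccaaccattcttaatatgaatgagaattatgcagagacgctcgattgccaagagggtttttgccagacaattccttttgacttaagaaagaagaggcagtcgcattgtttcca
Myh7: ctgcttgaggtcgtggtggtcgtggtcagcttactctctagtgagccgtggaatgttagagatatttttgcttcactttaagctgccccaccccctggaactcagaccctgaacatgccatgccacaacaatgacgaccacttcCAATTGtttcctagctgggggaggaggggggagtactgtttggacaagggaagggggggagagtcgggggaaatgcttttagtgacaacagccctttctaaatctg
Acta1: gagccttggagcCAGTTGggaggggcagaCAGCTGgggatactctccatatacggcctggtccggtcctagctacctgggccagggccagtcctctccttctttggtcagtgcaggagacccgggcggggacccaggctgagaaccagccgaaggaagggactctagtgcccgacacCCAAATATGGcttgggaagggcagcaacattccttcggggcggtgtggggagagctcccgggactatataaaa

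The Myh4 stretch held 2 E-boxes, 1 MEF2 match and 1 CArG match, and the Myh1 stretch held 1 MEF2 match with the same letters as that of Myh4. The Myh2 stretch held none of the 3 motifs, the Myh7 stretch 1 E-box (2 in the stretch before its second RefSeq start), and the Acta1 stretch 2 E-boxes and 1 CArG match, which begins 73 bases before the start. RefSeq gave 34 upstream stretches for 28 of the 34 members, and 32851 for 27025 genes in all. At least 1 stretch held an E-box in 25 of these 28 members and in 69.3% of all genes. For MEF2 it was 4 members (Myh1, Myh4, Pvalb and Ttn) and 1.99% of all genes, and for the CArG box 3 members (Acta1, Myh4 and Myl3) and 1.62% of all genes. Counted per stretch, the shares over all were 66.2% for the E-box, 1.69% for MEF2 and 1.47% for the CArG box, against 30, 4 and 3 of the members' 34. Each match is a description of letters and was not tied to binding.

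The heavy chains are the motors of the thick filament. Myh4 encodes the fastest isoform (type IIb), Myh1 type IIx and Myh2 type IIa, and all 3 lie side by side on chromosome 11, with Myh4 at chr11:67238029-67260446 in the deposited annotation, a start inside the gene as RefSeq draws it. Myh7 (chr14:54970684-54994626) encodes the slow heavy chain, which the heart also uses. Myh4 had 3.07, 0 and 0 FPKM in combination tumours, 0, 22.7 and 17.2 in brivanib tumours, 2.09, 0 and 0.235 in cisplatin tumours and 0 in each vehicle tumour. The 2 high brivanib libraries lay far above every other library, and the third brivanib library had no Myh4 fragment. Myh1 had 3.22, 0 and 0 FPKM in combination tumours, 0, 5.71 and 4.59 in brivanib tumours, 0.107, 0 and 3.28 in cisplatin tumours and 0 in each vehicle tumour. In cisplatin 3 Myh1 exceeded Myh4, with 398 fragments of Myh1 and 29 of Myh4, whereas in cisplatin 1 the order was the other way round, with 14 and 269 fragments. Myh2 had 0.332, 0 and 0 FPKM in combination tumours, 0, 2.51 and 1.94 in brivanib tumours, 0.023, 0 and 0.224 in cisplatin tumours and 0 in each vehicle tumour. Myh7 had 2.64, 0 and 0 FPKM in combination tumours, 0, 0.0144 and 0 in brivanib tumours, 0, 0.0138 and 0 in cisplatin tumours and 0 in each vehicle tumour. Its 169 fragments in combination 2 stood against 2 fragments in brivanib 3, 2 in cisplatin 2 and 0 in the other 9 libraries.

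Heavy chain make-up differed between the muscle-rich libraries. Of all fragments of the 4 adult heavy chains, Myh4 made up 44.2% of 895 in combination 2 (95% Wilson interval 41.0 to 47.5%), 74.3% of 4042 in brivanib 3 (73.0 to 75.6%), 72.4% of 2943 in brivanib 5 (70.8 to 74.0%), 94.1% of 286 in cisplatin 1 (90.7 to 96.3%) and 6.37% of 455 in cisplatin 3 (4.47 to 9.0%). The 2 brivanib libraries were alike in this share and the 2 cisplatin libraries lay at opposite ends. Myh1 made up 32.0% in combination 2, 18.6% in brivanib 3, 19.1% in brivanib 5, 4.90% in cisplatin 1 and 87.5% in cisplatin 3. Myh7 made up 18.9% in combination 2 (16.5 to 21.6%) and 0.0495% in brivanib 3 (0.0136 to 0.180%). By FPKM the shares in combination 2 were 33.1% for Myh4, 34.8% for Myh1 and 28.5% for Myh7, so Myh1 was slightly above Myh4. The intervals on fragments do not cover this difference between measures. In FPKM the Myh4 share was 73.4% in brivanib 3, 72.4% in brivanib 5, 94.1% in cisplatin 1 and 6.28% in cisplatin 3. No Myh7 fragment was counted in brivanib 5, cisplatin 1 or cisplatin 3, and a limit of 3 fragments of the total, used here wherever a count is 0, allows shares of up to 0.102%, 1.05% and 0.659%; the upper Wilson bounds are 0.130%, 1.33% and 0.837%. In the other 7 libraries the 4 heavy chains had 0 to 2 fragments together, and no share is given. Intervals and limits cover counting error only, since no molecular identifiers were used. Of the 50-base words of the longest coding transcript, 18.9% in Myh4, 26.7% in Myh1, 26.9% in Myh2 and 22.2% in Myh7 also occur in transcripts of other genes, mostly other heavy chains, so the split between heavy chains rests on RSEM's estimate.

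**Figure D2:**
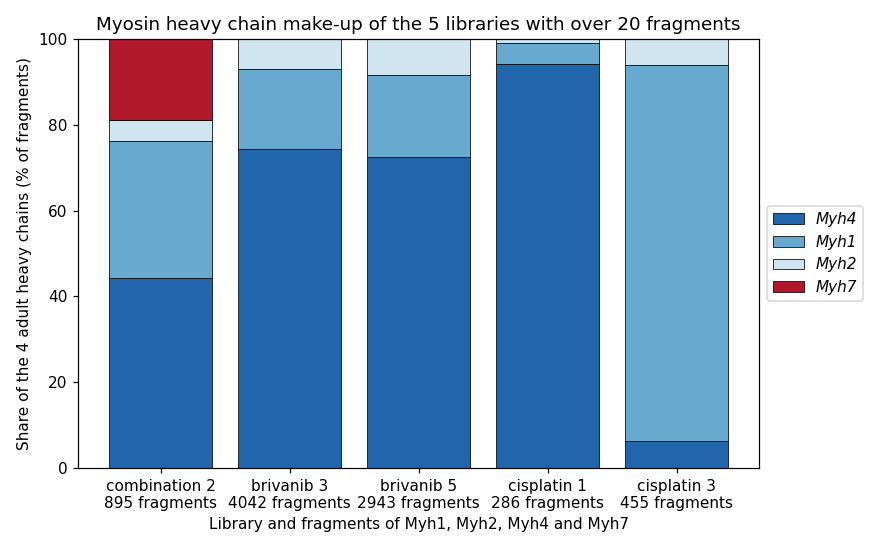
Share of Myh4, Myh1, Myh2 and Myh7 (% of their summed fragments, stacked bars) in the 5 libraries with over 20 such fragments. Combination 2 is the bar with a Myh7 segment that can be seen (18.9%), cisplatin 1 is nearly all Myh4 (94.1%) and cisplatin 3 is mostly Myh1 (87.5%).

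The bars of heavy chain make-up set the slow isoform apart in combination 2, and the light chains gave the same picture. Light chains wrap the lever arm of myosin. Myl1 and Mylpf are the fast essential and regulatory chains, and Myl3 and Myl2 are their slow counterparts, which heart ventricles also use. Myl1 had 1.39, 0 and 0 FPKM in combination tumours, 0, 29.5 and 32.9 in brivanib tumours, 1.02, 0 and 1.67 in cisplatin tumours and 0 in each vehicle tumour. Mylpf had 3.85, 0.434 and 0.409 FPKM in combination tumours, 0.63, 26.1 and 43.1 in brivanib tumours, 3.18, 0.634 and 2.69 in cisplatin tumours and 1.07, 1.6 and 1.38 in vehicle tumours. Mylpf was thus found in all 12 libraries, and the groups overlapped for both genes. Myl2 was found in combination 2 alone, at 2.0 FPKM and 29 fragments, and was at 0 in the other 11 libraries. Myl3 was found in combination 2 (0.783 FPKM, 16 fragments) and cisplatin 1 (0.19 FPKM, 3 fragments). The slow chains made up 35.2% of 128 light chain fragments in combination 2 (27.4 to 43.8%), none of 1049 in brivanib 3 and none of 1305 in brivanib 5, which allows up to 0.286% and 0.230%.

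Myosin binding protein C ties the thick filament together, and Mybpc2 is named its fast and Mybpc1 its slow isoform. Mybpc2 had 1.64, 0 and 0 FPKM in combination tumours, 0, 7.48 and 4.57 in brivanib tumours, 0.75, 0 and 0.202 in cisplatin tumours and 0 in each vehicle tumour. Mybpc1 had 3.37, 0 and 0 FPKM in combination tumours, 0, 4.67 and 3.37 in brivanib tumours, 0.0476, 0 and 0.484 in cisplatin tumours and 0 in each vehicle tumour. Mybpc1 was the 1 slow member with its highest value in a brivanib library. It made up 53.8% of the fragments of the pair in combination 2 (47.9 to 59.5%), 34.1% in brivanib 3 (31.1 to 37.3%), 32.6% in brivanib 5 (28.7 to 36.8%), 6.45% in cisplatin 1 (2.54 to 15.4%) and 72.2% in cisplatin 3 (59.1 to 82.4%). The share was thus highest in cisplatin 3, where 0 of 455 heavy chain fragments were Myh7. In brivanib 3 Myh7 made up 0.0495%, and in cisplatin 1 both shares were low. The Mybpc1 share therefore did not follow that of Myh7 and is not by itself a measure of slow fibres.

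Troponin is the calcium switch of the thin filament: troponin C binds calcium, troponin I blocks and troponin T anchors to tropomyosin. The fast troponin T gene Tnnt3 (chr7:142498836-142516009) had 5.02, 0 and 0.206 FPKM in combination tumours, 0, 32.1 and 23.8 in brivanib tumours, 3.67, 0 and 1.28 in cisplatin tumours and 0.50, 0 and 0.0992 in vehicle tumours. Its slow counterpart Tnnt1 had 2.2, 0.452 and 1.15 FPKM in combination tumours, 0, 0.247 and 0.494 in brivanib tumours, 1.11, 0 and 0.261 in cisplatin tumours and 0.401, 0.17 and 0.246 in vehicle tumours. All 3 combination values of Tnnt1 exceeded the 3 vehicle values, although combination 3 and vehicle 2 had 10 fragments each, and brivanib and vehicle overlapped. Slow and cardiac troponin C, Tnnc1 (chr14:31208312-31211729), had 4.81, 1.99 and 0.925 FPKM in combination tumours, 1.03, 0.909 and 0.942 in brivanib tumours, 1.46, 1.11 and 2.25 in cisplatin tumours and 0.589, 0.824 and 0.361 in vehicle tumours. Every treated library lay above the 3 vehicle libraries for Tnnc1, also those with no heavy chain fragment. In fragments the margin was narrow, with 14 in brivanib 3, 14 in brivanib 5 and 12 in combination 4, against 13 in vehicle 3. Fast troponin C, Tnnc2, had 3.41, 0.294 and 0 FPKM in combination tumours, 0.198, 30.6 and 25.2 in brivanib tumours, 2.4, 0.0612 and 1.18 in cisplatin tumours and 0.182, 0 and 0.0744 in vehicle tumours. Of troponin I, the fast gene Tnni2 reached 16.2 FPKM in brivanib 3 and 2.67 FPKM in combination 2, and the slow gene Tnni1 reached 0.194 FPKM and 0.822 FPKM in the same libraries.

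Slow isoforms took a larger share in combination 2 than in the brivanib libraries for all 3 troponins. The Tnnt1 share of troponin T fragments was 24.2% in combination 2 (18.0 to 31.6%), 0.692% in brivanib 3 (0.296 to 1.61%), 2.0% in brivanib 5 (1.12 to 3.55%) and 16.3% in cisplatin 1 (10.3 to 24.9%). The Tnni1 share of troponin I was 22.4% in combination 2 (14.1 to 33.7%), 1.53% in brivanib 3 (0.655 to 3.53%) and 0 of 207 fragments in brivanib 5, which allows up to 1.45%. The Tnnc1 share of troponin C was 58.1% in combination 2 (49.3 to 66.4%), 2.84% in brivanib 3 (1.70 to 4.71%), 3.64% in brivanib 5 (2.18 to 6.01%) and 66.0% in cisplatin 3 (52.2 to 77.6%). Tnnc1 and Tnnt1 were also found in libraries with no heavy chain fragment. In combination 3 Tnnc1 had 33 of the 35 troponin C fragments, as many as its 33 in cisplatin 3. Tnnt1 had 13 fragments in combination 4 and 10 in vehicle 2, against 16 in cisplatin 1. The Tnnc1 and Tnnt1 shares in the cisplatin libraries therefore need not come from slow fibres. The same holds for part of these shares in combination 2, where Tnnc1 had 72 fragments and Tnnt1 had 36. A low fast count also raises a slow share, and Tnnc2 had 52 fragments in combination 2 against 479 in brivanib 3. These intervals compare single libraries and not the treatments.

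**Figure D3:**
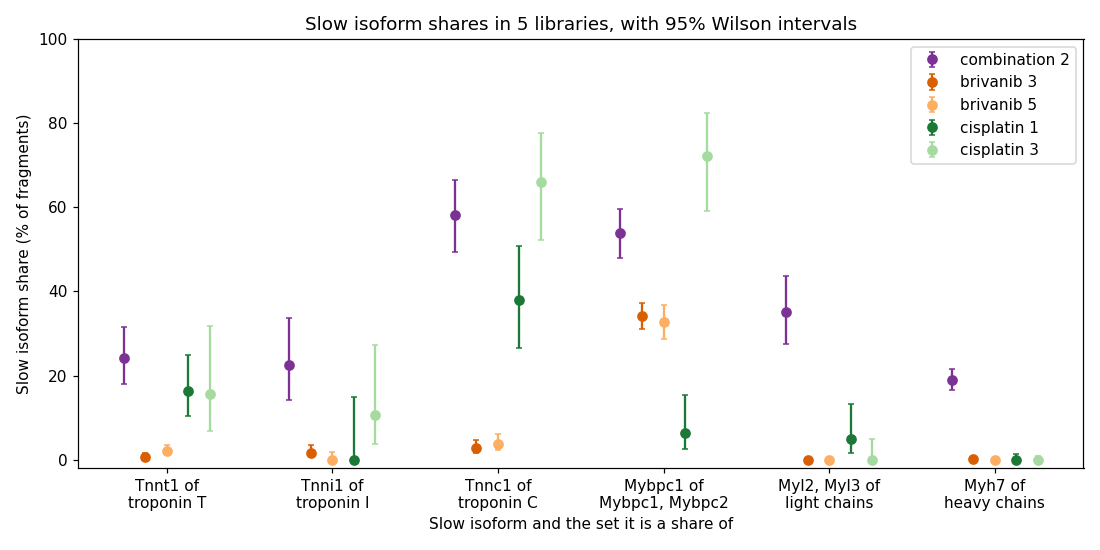
Slow isoform share (% of fragments, points) for 6 sets of isoforms in the 5 muscle-rich libraries, with 95% Wilson intervals as bars. Combination 2 lies above both brivanib libraries in all 6 sets, and cisplatin 3 is highest for Tnnc1 (66.0%) and Mybpc1 (72.2%). Tnnc1 and Tnnt1 also had fragments in libraries with no heavy chain fragment, and the Mybpc1 share did not follow that of Myh7.

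The plot of slow shares holds combination 2 apart from brivanib 3 and brivanib 5 in every set. Divided gene by gene, combination 2 had a median of 0.152 times the FPKM of brivanib 3 over the 14 fast members and 4.76 times over the 4 slow members with enough fragments to divide. That slow median rests on few fragments, since Tnni1 and Tnnt1 had 5 each in brivanib 3, and Mybpc1, with the most fragments, was at 0.722, against 5.29 for Tnnc1, 4.23 for Tnni1 and 8.90 for Tnnt1. Over the 12 shared members the median was 0.438. Brivanib 5 divided by brivanib 3 gave a median of 0.754 over 29 genes, with 10 above 1 and a range from 0.321 for Pygm to 2.23 for Ttn. Across the 34 genes, log2(FPKM + 1) values of brivanib 3 and brivanib 5 had a Pearson correlation of 0.97, and those of combination 2 and brivanib 3 of 0.68. Combination 2 was nearer to cisplatin 1 (0.91) and cisplatin 3 (0.88). These correlations are across genes, which are not independent replicates, and the abundant genes Tpm2 and Eno3 carry part of them.

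Thin filaments are built on skeletal alpha-actin, encoded by Acta1 (chr8:123891769-123894751). Acta1 had 21.3, 0.0903 and 0.0768 FPKM in combination tumours, 0.224, 119 and 88.9 in brivanib tumours, 9.04, 0.0296 and 6.3 in cisplatin tumours and 0.0881, 0.0623 and 0 in vehicle tumours. It was the most abundant member in brivanib 3 and brivanib 5, with 3838 and 2694 fragments, and had at most 7 fragments in the 7 muscle-poor libraries. Tpm2, beta-tropomyosin, which smooth muscle and fibroblasts also make, had 57.9, 54.9 and 49.9968 FPKM in combination tumours, 58.7, 51.7 and 56.5 in brivanib tumours, 49.9998, 43.7 and 48.8 in cisplatin tumours and 38.6, 39.9 and 52.3 in vehicle tumours. Its 12 values stayed within 38.6 to 58.7 FPKM. The main Tpm2 transcript ENSMUST00000107914 had 21.2, 29.7 and 24.2 FPKM in combination tumours, 34.2, 22.9 and 20.5 in brivanib tumours, 17.9, 22.4 and 26.5 in cisplatin tumours and 18.3, 19.9 and 25.9 in vehicle tumours. Brivanib 2, with 7 fragments of Acta1, had the highest Tpm2 level. As a share of Tpm2 FPKM that transcript made up 36.6, 54.0 and 48.4% in combination tumours, 58.3, 44.3 and 36.3% in brivanib tumours, 35.8, 51.2 and 54.2% in cisplatin tumours and 47.5, 49.7 and 49.5% in vehicle tumours. The 4 lowest shares were those of the 4 libraries with most Acta1, and cisplatin 3, the fifth, had 54.2%.

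The Z-disc anchors thin filaments. Its crosslinkers are the alpha-actinins, with Actn3 restricted to fast fibres, while Tcap, Myoz1 and the giant proteins titin (Ttn) and nebulin (Neb) attach to it. Actn3 had 1.38, 0.166 and 0 FPKM in combination tumours, 0, 7.41 and 5.53 in brivanib tumours, 1.0, 0.414 and 1.13 in cisplatin tumours and 0.147, 0.0782 and 0.0723 in vehicle tumours. Actn2 had 1.09, 0 and 0 FPKM in combination tumours, 0, 3.12 and 2.23 in brivanib tumours, 0, 0 and 0.097 in cisplatin tumours and 0 in each vehicle tumour. Both were highest in the same 2 brivanib libraries. Titin had 0.154, 0.0334 and 0.0503 FPKM in combination tumours, 0.0185, 0.32 and 0.711 in brivanib tumours, 0.0629, 0.063 and 0.0461 in cisplatin tumours and 0.0219, 0.0249 and 0.0229 in vehicle tumours. Being very long, Ttn gave 1363 fragments in brivanib 5 at that low FPKM, and 47 to 59 in each vehicle library. Neb had 0.426, 0.0813 and 0.0247 FPKM in combination tumours, 0.0668, 1.85 and 2.79 in brivanib tumours, 0.162, 0.0286 and 0.0737 in cisplatin tumours and 0.0302, 0.034 and 0.0463 in vehicle tumours. Tcap ranged from 0 to 5.19 FPKM and Myoz1 from 0 to 3.49 FPKM, both with their highest value in brivanib 3. Desmin (Des), the intermediate filament that links Z-discs and is also made by smooth muscle, had 7.92, 3.95 and 2.74 FPKM in combination tumours, 2.83, 19.3 and 10.3 in brivanib tumours, 2.77, 1.54 and 3.62 in cisplatin tumours and 1.8, 1.86 and 2.69 in vehicle tumours. All brivanib and all combination values of Des exceeded the vehicle values.

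Calcium handling and fuel genes complete the list. The fast calcium pump SERCA1, Atp2a1, had 8.71, 0 and 0 FPKM in combination tumours, 0, 22.96 and 10.5 in brivanib tumours, 2.7, 0.0246 and 1.26 in cisplatin tumours and 0, 0.0518 and 0 in vehicle tumours. Parvalbumin (Pvalb), the calcium buffer of fast fibres, had 0.751, 0 and 0 FPKM in combination tumours, 0, 10.1 and 10.9 in brivanib tumours, 0 in each cisplatin tumour and 0 in each vehicle tumour. Pvalb was thus found in 3 libraries. The calcium release channel Ryr1 reached 1.48 FPKM in brivanib 3 and the calcium store protein Casq1 4.33 FPKM in brivanib 5, and neither exceeded 0.187 FPKM in a cisplatin or vehicle library. Cav3, the muscle caveolin, had 4 fragments in brivanib 2 and 13 in brivanib 5, and 0 in the other 10 libraries. Muscle creatine kinase (Ckm) had 4.3, 0.0793 and 0.162 FPKM in combination tumours, 0.0338, 21.7 and 13.9 in brivanib tumours, 1.72, 0.0625 and 0.515 in cisplatin tumours and 0, 0 and 0.076 in vehicle tumours. Myoglobin (Mb), the oxygen store, had 2.0, 0.161 and 0 FPKM in combination tumours, 0, 2.11 and 4.14 in brivanib tumours, 0.169, 0 and 0.177 in cisplatin tumours and 0 in each vehicle tumour. Combination 2 nearly equalled brivanib 3 in Mb, at 43 and 52 fragments. Muscle glycogen phosphorylase (Pygm) had 2.94, 3.7 and 1.65 FPKM in combination tumours, 0.58, 6.29 and 2.02 in brivanib tumours, 1.21, 0.537 and 0.322 in cisplatin tumours and 0.606, 1.01 and 1.22 in vehicle tumours, and its second highest library was combination 3, which had no heavy chain fragment. Muscle enolase (Eno3) had 30.2, 27.7 and 24.3 FPKM in combination tumours, 17.8, 25.1 and 17.8 in brivanib tumours, 26.3, 15.3 and 15.4 in cisplatin tumours and 16.7, 19.1 and 13.7 in vehicle tumours. All 3 combination values of Eno3 lay above all 3 vehicle values.

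Group differences were tested with limma on log2(FPKM + 1), two-sided, with Benjamini-Hochberg adjustment across 14246 genes with a mean FPKM of at least 1 and a threshold of 0.05. Of the 34 members 19 passed that filter, and most did so through the muscle-rich libraries. Medians and counts over the 34 members include those below the filter, whereas values over all tested genes do not. Differences are treated minus vehicle on the log2(FPKM + 1) scale ± SE, which understates the change of low genes.

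Brivanib against vehicle asked what the kinase inhibitor did alone. The 32 genes summed to 6.26, 407 and 333 FPKM with brivanib, against 5.81, 7.0 and 7.41 FPKM with vehicle, so 2 of 3 tumours were high and 1 lay within the vehicle range. Acta1 averaged 69.5 ± 61.9 FPKM with brivanib and 0.0501 ± 0.0453 FPKM with vehicle (SD, n = 3 each), a difference of 4.49 ± 1.63 with an adjusted p of 0.276 in limma. Des differed by 1.63 ± 0.50 (adjusted p = 0.182 in limma), Tnnc2 by 3.20 ± 1.02 (adjusted p = 0.202) and Tpm2 by 0.36 ± 0.12 (adjusted p = 0.23). By limma 0 of the 19 tested members passed, where 1.81% of all tested genes did, and the lowest adjusted p was 0.179, for Pvalb. At an unadjusted p under 0.05 there were 15 of the 19 members, and 11.7% of all tested genes. Most of the 19 passed the filter through the libraries in which they were high, so these shares are not a like comparison. The count by voom on recovered fragments was 0 adjusted, and 6 unadjusted beside 18.8% of all genes. The median difference over the 34 members was 1.31, against -0.01 over all tested genes, and by class it was 2.36 for fast, 0 for slow and 1.12 for shared members. For members at 0 in all vehicle libraries only a bound can be given, against a floor of 3 fragments per library: mean FPKM was at least 563-fold higher with brivanib for Myh4, 144-fold for Myh1, 136-fold for Myl1, 104-fold for Mybpc2 and 47.95-fold for Pvalb, although each was at 0 in brivanib 2. With such genes at their bound the median was 1.71. All 3 brivanib values lay above all 3 vehicle values for 5 of 34 members (Acta1, Tnnc2, Tnnc1, Neb and Des), and for 8.95% of all tested genes. Of these 5, Neb was below the filter, and Tnnc1 had 14 to 16 fragments with brivanib, against 5 to 13 with vehicle. Tnnc2 had 3 fragments in brivanib 2 and 3 in vehicle 2.

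A single library decided the brivanib count. Without brivanib 2, limma called 14 of 20 tested members higher with brivanib (Acta1, Actn3, Atp2a1, Ckm, Des, Mybpc2, Myh4, Myl1, Mylpf, Pvalb, Tcap, Tnnc2, Tnni2 and Tnnt3), with adjusted p from 0.000292 to 0.0495 and differences from 2.11 to 6.63, beside 1.54% of all genes tested. That fit keeps brivanib 3 and brivanib 5, the libraries in which these genes were high and through which most passed the filter. The calls thus follow from the choice of library and are not evidence of a drug effect. Without brivanib 3 or without brivanib 5 the count was 0, and the median over the members was 1.01 and 0.96. With every library rescaled to the same FPKM total, which lowers brivanib 5 and moved the median of all genes to -0.34, limma called 3 members higher (Myl1, Pvalb and Tnnc2) and 1.15% of all genes in either direction. With totals taken without the ribosomal-like features it called 0. Brivanib 5 also held the ribosomal share given above, whose part in its muscle values was not tested. Brivanib 3, the other muscle-rich brivanib library, had 0.314% of such fragments.

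**Figure D4:**
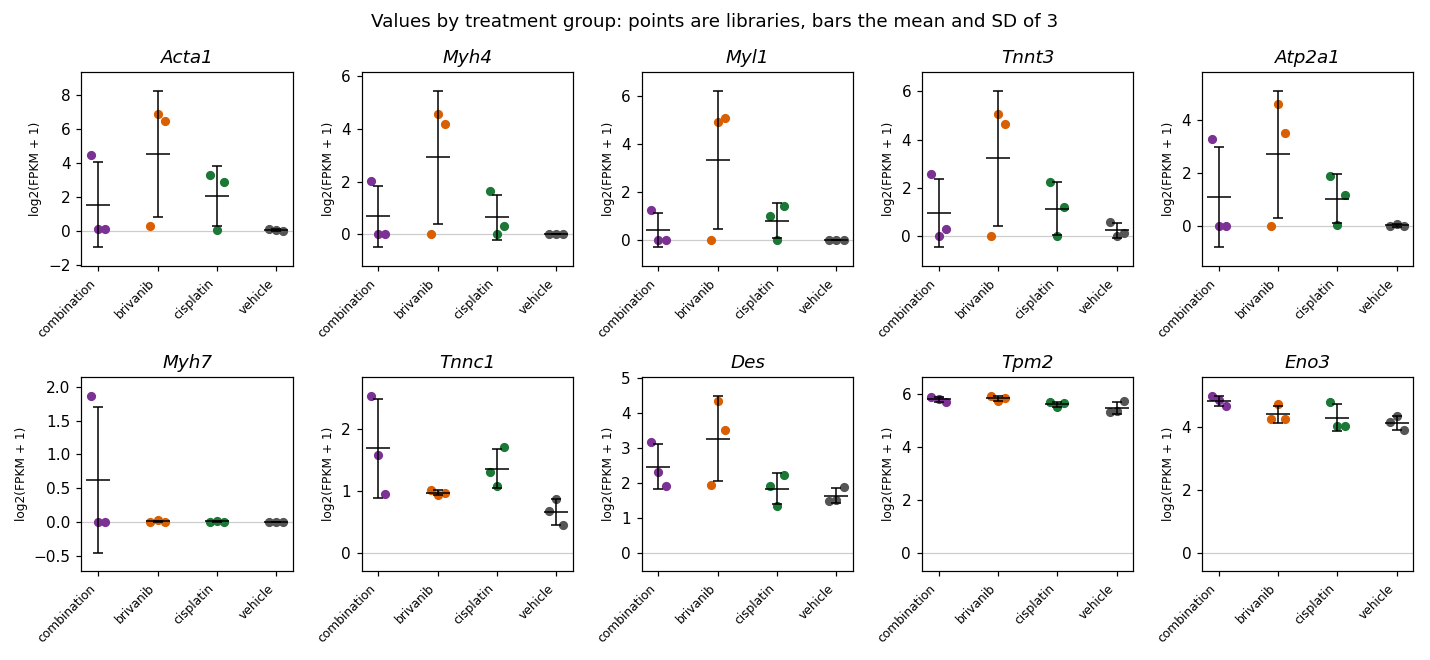
Values of 10 members (log2(FPKM + 1)) in the 3 libraries of each group (points), with the mean and SD (black bars), groups from combination to vehicle. The brivanib points of Acta1, Myh4, Myl1, Tnnt3 and Atp2a1 fall into 2 high and 1 low, Myh7 has 1 high point, in combination 2, and Tpm2 and Eno3 lie close together in all groups.

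In the plot of 10 members by group, most panels hold 1 or 2 high libraries in each treated group. Combination against vehicle asked what both drugs did together. The 32 genes summed to 96.5, 11.8 and 7.77 FPKM with the combination, against 5.81, 7.0 and 7.41 FPKM with vehicle, so combination 2 was far above the rest, and the other combination sums also lay above all vehicle sums. Eno3 averaged 27.4 ± 2.96 FPKM with the combination and 16.5 ± 2.7 FPKM with vehicle (SD, n = 3 each), a difference of 0.70 ± 0.21, and its adjusted p of 0.0964 in limma was the lowest of the members. Tnnc1 differed by 1.03 ± 0.33 (adjusted p = 0.121 in limma), Tpm2 by 0.32 ± 0.12 (adjusted p = 0.176), Pygm by 0.93 ± 0.45 (adjusted p = 0.296) and Acta1 by 1.5 ± 1.6 (adjusted p = 0.668). By limma 0 of the 19 passed, where 2.34% of all tested genes did, 3 had an unadjusted p under 0.05 beside 18.8% of all tested genes, and voom called 0, with 3 unadjusted beside 10.03%. Eno3 passed without cisplatin 1 (adjusted p = 0.0478 in limma, 2.15% of all genes called), a library outside the comparison that sets the shared spread. Tnnc1 passed without combination 4 (adjusted p = 0.0390 in limma, 2.34% of all genes called). The median difference over the members was 0.44, against 0.04 over all tested genes, 0.81 with members at 0 in vehicle set to their bound, and 0 without combination 2. Bounds against vehicle were at least 43.4-fold for Myh4, 31.3-fold for Myh1 and 18.5-fold for Myh7, all from combination 2. All combination values lay above all vehicle values for 7 of 34 members (Tnnc1, Tnnt1, Ckm, Eno3, Ttn, Des and Pygm), and for 17.2% of all tested genes. Of these 7, Tnnt1 and Ttn were below the filter, and 3 were split by few or no fragments. Tnnt1 had 10 in combination 3 and 10 in vehicle 2, and Ckm had 5 in combination 3 and 4 in vehicle 5. Tnnc1 had 12 in combination 4 and 13 in vehicle 3.

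Cisplatin against vehicle asked what the platinum drug did alone. The 32 genes summed to 36.7, 4.98 and 29.5 FPKM with cisplatin, against 5.81, 7.0 and 7.41 FPKM with vehicle, with cisplatin 2 below all vehicle libraries. Tnnc1 averaged 1.61 ± 0.586 FPKM with cisplatin and 0.591 ± 0.231 FPKM with vehicle (SD, n = 3 each), a difference of 0.70 ± 0.33, and its adjusted p of 0.36 in limma was the lowest. Acta1 differed by 2.01 ± 1.63 (adjusted p = 0.616 in limma). By limma 0 of the 19 passed, where 0.19% of all tested genes did, 0 had an unadjusted p under 0.05 beside 14.3% of all tested genes, and voom called 0, with 1 unadjusted beside 5.95%. The median over the members was 0.15, against 0.07 over all tested genes. All cisplatin values lay above all vehicle values for 3 of 34 members (Actn3, Tnnc1 and Ttn), and for 17.0% of all tested genes. Of these 3, Ttn was below the filter.

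The combination was also set against each drug alone, and these comparisons share samples with those above. Against brivanib, 0 of the 19 members passed in limma, where 3.87% of all tested genes did, and 7 had an unadjusted p under 0.05 beside 21.7% of all genes. Voom called 0, with 4 unadjusted beside 23.8%. Pvalb had 0.751, 0 and 0 FPKM with the combination, against 0, 10.1 and 10.9 FPKM with brivanib, and the lowest adjusted p, 0.123 in limma. Without brivanib 2, limma called 11 of 20 tested members lower with the combination (Acta1, Actn3, Ckm, Mybpc2, Myh4, Myl1, Mylpf, Pvalb, Tnnc2, Tnni2 and Tnnt3), beside 3.08% of all genes. That fit keeps only the brivanib libraries in which these genes were high, so the calls follow from the choice of library. Against cisplatin, 0 of the 19 passed, where 0.0% of all tested genes did, and 2 had an unadjusted p under 0.05 beside 6.74% of all genes. Voom called 0, with 1 unadjusted beside 3.004%. Whether brivanib differed in effect with and without cisplatin was tested as the interaction: 0 of the 19 passed, where 0.14% of all tested genes did, and 4 had an unadjusted p under 0.05 beside 10.04% of all genes. Voom called 0, with 2 unadjusted beside 9.79%. Without brivanib 2, Actn3, Myl1 and Pvalb passed the interaction with negative values (adjusted p from 0.00874 to 0.0463 in limma), beside 0.0773% of all genes, and the same limit holds for these calls.

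Other genes of muscle were read from lists of genes outside the 34. Of 17 myogenic factor and satellite cell genes 6 were tested, and 0 passed against vehicle for brivanib, cisplatin or the combination. The satellite cell gene Pax7 was at 0.0153 FPKM in brivanib 3 and 0 elsewhere, Myf5 was at 0 in all 12 libraries, and Myod1 and Myog did not exceed 0.23 and 0.159 FPKM. Myf6, the factor of mature fibres, had 0.182, 0 and 0 FPKM in combination tumours, 0, 0.744 and 0.414 in brivanib tumours, 0.148, 0 and 0.231 in cisplatin tumours and 0 in each vehicle tumour, so it was found in the 5 muscle-rich libraries alone. Of the developing heavy chains, Myh8 was found in brivanib 5 alone (0.0232 FPKM) and Myh3 stayed at or under 0.205 FPKM. The 10 developing fibre genes were all below the filter, and summed to 1.2 to 2.39 FPKM with the combination, 3.44 to 6.37 with brivanib, 1.04 to 1.95 with cisplatin and 0.238 to 0.596 with vehicle. Brivanib 2 was not low in that sum, and its Ncam1 level of 1.17 FPKM was near those of brivanib 3 and brivanib 5, at 0.754 and 1.21 FPKM. Of 22 excitation-contraction coupling genes 5 were tested, and Srl, a calcium-binding protein of the sarcoplasmic reticulum, passed for the combination against vehicle, while 0 of the 5 passed for brivanib or cisplatin. Srl had 8.82, 8.93 and 9.24 FPKM in combination tumours, 3.98, 6.67 and 5.9 in brivanib tumours, 9.49, 9.6 and 9.45 in cisplatin tumours and 5.36, 5.02 and 4.22 in vehicle tumours, which is not the pattern of the fibre genes. Its difference for the combination was 0.77 ± 0.15 (adjusted p = 0.0267 in limma).

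Of 38 other sarcomere, Z-disc and costamere genes 9 were tested. The small heat shock protein Cryab, found in many tissues, rose with the combination (1.89 ± 0.28, adjusted p = 0.0102 in limma) and with brivanib (1.60 ± 0.28, adjusted p = 0.0126 in limma). It had 9.03, 17.8 and 8.18 FPKM in combination tumours, 10.6, 8.85 and 7.35 in brivanib tumours, 6.29, 3.57 and 3.24 in cisplatin tumours and 1.7, 2.66 and 2.47 in vehicle tumours, so brivanib 2, with few fibre gene fragments, was as high as the other brivanib libraries. Hspb6, its relative, rose with the combination (1.13 ± 0.26, adjusted p = 0.0482 in limma). Myoz2 and Ankrd2, genes of the Z-disc and sarcomere, were highest in combination 2, at 1.14 and 1.75 FPKM, against 0.303 and 1.42 FPKM in brivanib 3. Csrp3, muscle LIM protein, was highest in brivanib 5 at 3.22 FPKM, and Smpx likewise at 2.56 FPKM. Of 18 muscle energy genes 7 were tested and 0 passed in the comparisons with vehicle. Among them the phosphoglycerate mutase Pgam2 had 2.51, 2.28 and 1.85 FPKM in combination tumours, 0.661, 6.44 and 3.34 in brivanib tumours, 1.83, 0.816 and 1.16 in cisplatin tumours and 1.01, 0.697 and 0.186 in vehicle tumours. Cox8b, a subunit of cytochrome oxidase in muscle and brown fat, was at 9.69 FPKM in brivanib 3, 0.259 FPKM in cisplatin 1 and 0 elsewhere.

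Genes outside the list whose log2(FPKM + 1) followed the members' mean most closely over the 12 libraries were Ankrd23 (Pearson r 0.95), Fhl1 (0.94), Gm27786 (0.94), Pdlim3 (0.94) and Cilp (0.91). The next 10 were Kpna1, Eln, Retnla, Cox6a2, H2-DMa, Pgam2, Ndrg2, H19, Asb5 and Gm18584, down to 0.84. These values describe 12 libraries that differ in depth and treatment. Fhl1, a LIM protein of muscle, had 3.24, 0.617 and 0.18 FPKM in combination tumours, 1.74, 10.1 and 7.58 in brivanib tumours, 1.39, 0.155 and 1.94 in cisplatin tumours and 0.0613, 0.182 and 0.649 in vehicle tumours. Pdlim3, a Z-disc protein, had 0.843, 0.108 and 0 FPKM in combination tumours, 0.0577, 5.06 and 8.25 in brivanib tumours, 0, 0 and 0.681 in cisplatin tumours and 0, 0.112 and 0 in vehicle tumours. Both were high in the brivanib pair and lower in combination 2. They were picked for following the members' mean over these libraries, so this likeness follows from the choice.

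Markers of neighbouring tissues were set beside the fibre genes. Heart muscle also makes Myh7, Myl2 and Myl3. Of the 10 heart markers, in combination 2 Nppb was at 0.646 FPKM, Myl4 at 0.383 FPKM, Myh6 at 0.015 FPKM, Tnni3 at 0.19 FPKM, and Myl7 and Mybpc3 were at 0. Over the 10 heart markers the summed FPKM was 1.25 to 1.86 with the combination, 1.59 to 2.61 with brivanib, 1.49 to 2.0 with cisplatin and 0.741 to 1.42 with vehicle. The 12 keratinocyte markers summed to 0.716 to 1.52 FPKM with the combination, 1.93 to 5.65 with brivanib, 0.652 to 2.47 with cisplatin and 0.556 to 1.42 with vehicle, so the sum was higher in every brivanib library than in every vehicle library. Sbsn, the 1 tested marker, had 5.33, 1.74 and 4.63 FPKM with brivanib, against 0.483, 0.813 and 1.42 FPKM with vehicle, a log2 difference of 1.30 that did not pass. Krt5, Krt1, Krt15, Ivl and Flg were at 0 in all 12 libraries.

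Fat and connective tissue markers also differed between groups. The 16 adipocyte markers summed to 140 to 418 FPKM with the combination, 87.1 to 389 with brivanib, 53.4 to 114 with cisplatin and 44.9 to 46.1 with vehicle. Of 12 tested, Retn and Cd36 rose with the combination (2.03 ± 0.45 and 1.93 ± 0.35, adjusted p = 0.0397 and 0.0218 in limma) and 0 passed with brivanib or cisplatin. Adiponectin (Adipoq) had 4.08, 1.58 and 2.62 FPKM in combination tumours, 0.358, 12.5 and 0.258 in brivanib tumours, 3.11, 0 and 0 in cisplatin tumours and 0, 0 and 0.0806 in vehicle tumours. It was above all vehicle values in combination 3 and combination 4, where fibre genes were low, and also in brivanib 5, where they were high. In cisplatin 3, with high fibre genes, it was at 0. The whole list summed to 91.1 FPKM in brivanib 2 and 87.1 in brivanib 5, and to 114 in cisplatin 1 and 53.5 in cisplatin 3, each above the vehicle sums. The 12 fibroblast markers summed to 365 to 869 FPKM with the combination, 1740 to 2305 with brivanib, 584 to 1176 with cisplatin and 758 to 1277 with vehicle. With brivanib 7 of the 12 rose (Col1a1, Col1a2, Pi16, Fbln1, Fbn1, Postn and Mfap5), and Col1a1 was highest in brivanib 2, at 482 FPKM, the brivanib library with few fibre gene fragments. With the combination Dcn fell by 1.17 ± 0.19 on the log2 scale (adjusted p = 0.0147 in limma). Of 14 smooth muscle and pericyte markers, which include Des, Acta2 and Tagln rose with brivanib (2.38 ± 0.42 and 2.55 ± 0.36, adjusted p = 0.0135 and 0.00402 in limma). Acta2 had 33.98, 36.1 and 20.5 FPKM in brivanib tumours, against 3.0, 4.91 and 7.4 in vehicle tumours, and was thus high also in brivanib 2. With the combination the pericyte gene Rgs5 fell by 1.40 ± 0.21 on the log2 scale (adjusted p = 0.0102 in limma). The 9 nerve and Schwann cell markers summed to 21.2 to 27.6 FPKM with brivanib and 6.40 to 10.3 FPKM with vehicle, with Pmp22 past the threshold (1.56 ± 0.35, adjusted p = 0.0451 in limma). The 5 erythroid markers fell with the combination and with cisplatin, to summed levels of 4.54 to 16.5 FPKM and 4.44 to 99.6 FPKM, against 1607 to 3085 FPKM with vehicle. The part of these tissues in the fibre gene values was not tested.

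**Figure D5:**
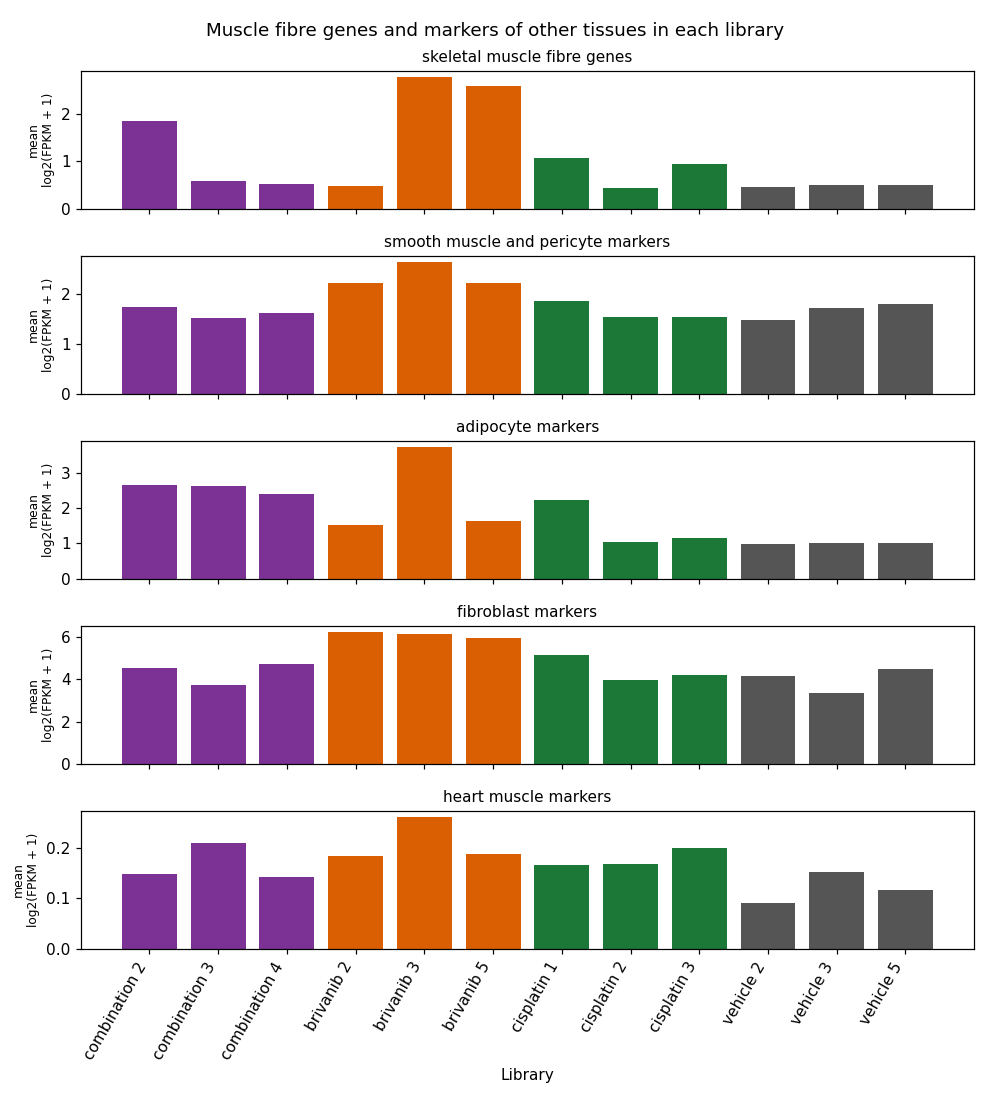
Mean log2(FPKM + 1) of the 34 fibre genes (top) and of 4 marker lists in each of the 12 libraries (bars), coloured by group from combination to vehicle, each panel with its own scale from 0. The fibre genes are high in 2 of 3 brivanib libraries, while the fibroblast list is high in all 3, and the adipocyte list is high in brivanib 3 and in all 3 combination libraries.

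In the panels by library, which plot means of log2(FPKM + 1), brivanib 3 was the highest library for the fibre genes and for the smooth muscle, adipocyte and heart lists, and brivanib 2 was the highest for the fibroblast list. Transcript estimates were uneven between libraries. In Tnnt3, transcript ENSMUST00000074187 had 16.6 FPKM in brivanib 3 and 0 in the other 11 libraries, whereas ENSMUST00000179658 had 8.42 FPKM in brivanib 3, 22.04 FPKM in brivanib 5 and 4.63 FPKM in combination 2. RSEM divides fragments between the 27 annotated Tnnt3 transcripts, so this split is uncertain and the gene sums were used above. In Ttn the long coding transcript ENSMUST00000099981 held 1352 of 1363 fragments in brivanib 5, and in Neb ENSMUST00000036934 held 570 of 641 there.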

How the data were processed

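RNA from 12 tumours was sequenced on the BGISEQ-500, and transcript abundance was estimated with RSEM after Bowtie2 alignment, per the labels' protocols, which name the mm10 genome. The submitters' processing notes list HISAT, Bowtie2 2.2.5, Bowtie and RSEM 1.2.12 with the build mm9. The coordinates of 98.48% of the deposited transcripts were those of GENCODE M21 on GRCm38, which is mm10. The values deposited by the authors are FPKM per transcript. They were summed per gene, 3 broken lines were dropped, and 1 per-sample column that matched no sample was not used. FPKM times length gave whole fragments, within 0.01 of a whole number, for all values up to 100 fragments.

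Genes with a mean FPKM of at least 1 were fitted with limma 3.58.1 (R 4.3.3) on log2(FPKM + 1), with group means over all 12 libraries, a mean-variance trend and Benjamini-Hochberg adjustment. The script was tested on simulated data. Wilson intervals are at 95%, and the floor for genes at 0 is 3 fragments per library. The members named in full were the 3 with the highest mean FPKM of each class and any at 0 in a whole group, and further members with values were picked for their roles after the values were seen. Alternatives were a pseudocount of 0.1, a mean FPKM of at least 5, no filter, equal FPKM totals with and without ribosomal-like features, median-of-ratios scaling, voom on recovered fragments, a replicate block and leaving out each library. The members and the lists were chosen with earlier results of these data known. Upstream sequences are from RefSeq (GRCm38.p6).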

Additional observations from a re-analysis of the deposited data

How the results depend on the processing

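For 19 fold changes of single members, each from 1 of the comparisons with vehicle, 374 alternative values were obtained, of which 360 kept direction and side of the threshold, 10 passed it and 4 turned. With equal FPKM totals Tpm2 was at -0.010 and Eno3 at -0.076 for brivanib, and for cisplatin Eno3 was at -0.19 with the replicate block and ranged from -0.089 (without cisplatin 1) to 0.28 over the leave-outs of 1 library. The cause was not tested. Equal FPKM totals gave 3 called members for brivanib, and moved the median of all genes to -0.34. Over the 12 leave-outs of 1 library the number of members called ranged from 0 to 14 for brivanib, 0 to 1 for the combination, 0 to 11 for the combination against brivanib and 0 to 3 for the interaction, and was 0 otherwise. The members' median ranged from 0.96 to 2.06 for brivanib, 0.10 to 0.26 for cisplatin and 0 to 0.70 for the combination. With a pseudocount of 0.1 the medians were 2.77 for brivanib, 0.46 for cisplatin and 1.19 for the combination, and with voom they were 2.94, 1.16 and 1.72. Under voom the median of all tested genes was -0.30 for brivanib. The log2(FPKM + 1) scale understates the change of low genes, and 13 members had 0 fragments in all vehicle libraries. How much of the larger medians of the members this makes up was not tested. With the replicate number as a block the medians were 1.31, 0.27 and 0.81 and 0 members were called. The numbers of cisplatin 1 and combination 4 occur in no other library, so these 2 libraries carry no weight in the comparisons of that fit. Same-numbered libraries had correlations of -0.157 to 0.213 in their deviations from the group means. Differently numbered libraries had correlations of -0.232 to 0.231. With few libraries per group, these values show no pairing by number but cannot tell whether a number marks a shared animal or batch. At 17160875 to 30942897 recovered fragments per library, genes at a few fragments, such as Cav3 and Myl3, are at the limit of detection.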
